A study of Mus musculus with 12 samples.

Results

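The genes described here are 35 known targets of the transcription factor p53 that belong neither to the families of death receptors, Bcl2 proteins, Gadd45 proteins and sestrins nor to DNA repair. They were listed by gene symbol, with earlier results of these data known, and all 35 have a row among the 29486 genes of the table of normalised counts. By mRNAseq, the abundance of total mRNA was measured in primary splenic B cells of adult C57BL/6Babr mice that carried no engineered allele, isolated with a B cell isolation kit and all activated in culture with LPS (10 μg/ml). There were 3 conditions with 4 libraries each. The first was LPS for 48 h alone (LPS). The second was LPS for 48 h and then etoposide, a topoisomerase II inhibitor that leaves DNA double-strand breaks, at 20 μM for 4 h (LE). The third was LPS for 47 h, the ATM kinase inhibitor KU55933 at 10 μM for 1 h and then the same etoposide treatment (LEKU). One label spells the inhibitor KU59933. No condition had KU55933 without etoposide, and the labels do not say whether the LPS cells stayed in culture for the further 4 h. Each condition carried 2 Illumina indexes of its own, so an effect of the index and of the treatment cannot be told apart.

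p53 is a transcription factor that in general is held at a low level by Mdm2 and is stabilised when DNA is broken. For activated B cells the study assigned Mdm2 a minor role and proposed that translation, more than protein stability, sets p53 expression. ATM, the kinase that senses double-strand breaks, phosphorylates p53 and Mdm2, while related kinases can act on p53 in parallel. The best known targets arrest the cell cycle or start apoptosis, but many others act in signalling, RNA control, metabolism and mitosis, and these are the ones followed here. In B lymphocytes, which break their own DNA to rearrange and switch antibody genes, this response guards against transformation.

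Short stretches around matches to the p53 half-site are shown because p53 binding sites are built from this motif. A half-site is only a part of such a site, and full sites were not searched for. RefSeq promoter windows on GRCm38.p6, which run from 250 bases before a transcript start to 50 after it, were found for 29 of the 35 members. Perp, Phlda1, Ptp4a3, Tnfaip8, Trp53inp1 and Zmat3 had no window. Capitals mark the match in each line, and both strands were searched.
Ei24, chr9:36797325-36797354, minus strand: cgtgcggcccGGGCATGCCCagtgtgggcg
Rap2b, chr3:61364530-61364556, plus strand: gcgacgtactGGGCATGCTCggctggg
Ckap2, chr8:22186003-22186032, minus strand: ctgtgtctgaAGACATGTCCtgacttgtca
Aen, chr7:78895927-78895956, plus strand: agccgaagccGGGCTTGTCCgggcaaggag
Gtse1, chr15:85859945-85859974, plus strand: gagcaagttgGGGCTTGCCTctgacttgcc
Rps27l, chr9:66946193-66946222, plus strand: ctttgggctcGGGCTTGCTTtccttcaggc
Rps27l, chr9:66946296-66946325, plus strand: gggcttgttgAGACTTGTCCgggcgacacg
Abhd4, chr14:54259274-54259303, plus strand: cgacccggcaGGGCTTGTTTactatggctg

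These 7 genes were 24.1% of the 29 members with a window, and 9.55% of the 27025 genes with a window held the same motif. Per window, 18.2% of the 44 member windows and 8.36% of all 32851 windows held it. The first 3 lines carry the core CATG inside the motif, which 10.3% of the member genes and 2.24% of all genes had. The match began 10 bases before the transcript start in Ei24, 203 before it in Ckap2 and 34 after it in Rap2b. These are RefSeq starts, and some genes have more than 1. The matches of Rap2b and Abhd4 lie inside the genes as annotated in GENCODE M21, which begin at 61361638 and 54254188. A second motif, TTTGAA, which is the cell cycle homology region of many mitotic genes, was in the windows of Aen, Ckap2, Epha2 and Gdf15. That was 13.8% of the member genes, against 20.2% of all genes. The line of Ckap2 shows it 101 bases before the start.
Ckap2, chr8:22185905-22185930, minus strand: tttgttcgatTTTGAAatttctcgcc

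Aen and Ckap2 were the 2 members with both motifs. A match is a description of the letters and not evidence that p53 binds there, and a p53 site may also lie outside such a window.

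The deposited columns of a condition were the same up to 1 factor per library. For Perp, the 4 LPS columns held 3.79, 4.20, 4.37 and 3.94. Its LE columns held 193.9, 217.4, 263.3 and 210.7, and its LEKU columns 43.5, 49.0, 52.5 and 53.4. No column of one condition overlapped those of another for Perp, but the columns of a condition differed by the same factors in all genes (the log2 ratio varied by at most 1.4e-14). The values are therefore fitted condition means, the table holds no spread between replicates, and no test or p-value can be had from it. After scaling, every gene has 1 level per condition, a normalised count on a scale shared by the 12 libraries, and a fold is a ratio of 2 levels. The intervals given with folds are 95% exact binomial (Clopper-Pearson) intervals that take the summed values as read numbers. They cover counting error only, so the spread between cultures would come on top. DESeq2 may also have drawn fitted differences toward 0. As in any bulk sample, fewer cells with a transcript and less of it per cell cannot be told apart.

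The samples look like B cells by their markers. All 6 B cell markers were above a level of 10 in the 3 conditions, with summed levels of 130300 with LPS, 74260 with LE and 83190 with LEKU. Pax5 and Cd22 differed most among them, Pax5 at 5407, 1139 and 1175 and Cd22 at 23516, 4342 and 5094 in that order. The 5 T cell markers were all under 10, with summed levels between 7.99 and 9.397. Of 6 macrophage markers, 4 were at 10 or more with LPS, 6 with LE and 5 with LEKU, and their summed level ranged from 407.3 to 475.2. Itgam and Adgre1 were highest with LPS, Itgam at 214.9, 130.9 and 115.7 and Adgre1 at 47.8, 45.9 and 39.8. Cd68 at 102.0, 214.6 and 176.6, Lyz2 at 33.5, 48.8 and 51.6, Cd14 at 5.05, 24.6 and 40.9 and Csf1r at 4.08, 10.5 and 9.79 were lowest with LPS. Red blood cell and neutrophil markers summed to at most 67.1 and 15.2, and the 1 NK cell marker in the table to at most 1.08. Of the 2 platelet markers, Itga2b differed between the conditions at 36.9, 384.9 and 180.0, while Pf4 was at 7.72, 7.51 and 13.6. The part of other cells, or of the lower B cell markers, in the results was not tested. Summed normalised counts, which stand for depth here, were between 20739978 and 23935658 per LPS library, 22523516 and 30575195 per LE library and 20400994 and 25052093 per LEKU library.

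Etoposide went with higher levels of most members. The median fold of LE over LPS was 5.51 (log2 2.46) over the 34 members that reached a level of 10 in some condition, and 1.03 (log2 0.042) over all 15613 such genes. Of the 34, 26 were at least 2-fold higher in LE, 76.5% of them, where 15.5% of all genes were. None was at least 2-fold lower, and 5.35% of all genes were. Perp, Lif and Gdf15 were under 10 with LPS and entered through a condition in which they were higher. Among the 31 members at 10 or more in every condition, 24 were at least 2-fold higher, 77.4% of them, against 10.6% of genes filtered the same way. The member left out, Cmbl, a small hydrolase, was at 2.34, 2.56 and 3.01 and was too low to compare.

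**Figure D1:**
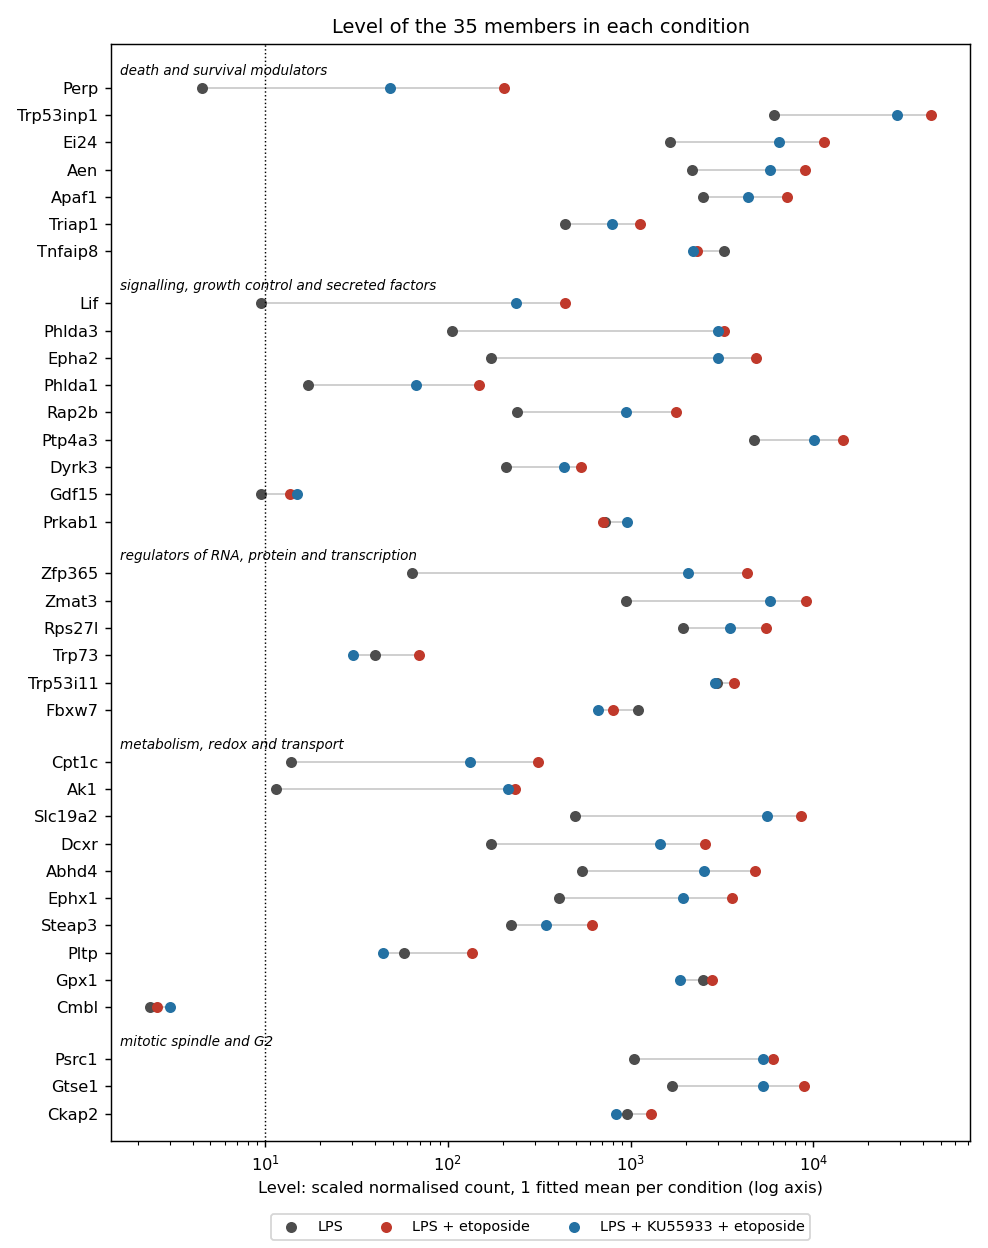
Level of each of the 35 members (scaled normalised count, 1 fitted mean per condition, logarithmic horizontal axis) with LPS (grey), LPS and etoposide (red) and LPS, KU55933 and etoposide (blue), in role groups; the dotted line is the minimum of 10. For most members the blue point lies between the grey and the red ones, while Tnfaip8 and Fbxw7 are highest with LPS alone.

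Death and survival modulators were higher in LE for 6 of 7 genes past 2-fold, with a median of 4.17-fold. For this and the other role groups, the share of all genes at least 2-fold higher was 15.5%. Perp, a membrane protein of desmosomes that promotes apoptosis (ENSMUSG00000019851, chr10:18845020-18857073, plus strand), had levels of 4.52 with LPS, 202.6 with LE and 48.3 with LEKU. That was 44.8-fold higher in LE than in LPS, with a counting interval from 28.0 to 80.2, wide because so few reads were seen with LPS. With a pseudocount of 5 the difference was 21.8-fold. Trp53inp1, a stress protein that promotes p53 phosphorylation and autophagy (chr4:11156431-11174379, plus strand), was already at 6056 with LPS and reached 44310 with LE and 28777 with LEKU. Its 7.32-fold difference (7.21 to 7.42) was the largest gain of the list in scaled count, 38253, a value that also depends on the length of a gene. Ei24, a membrane protein of the endoplasmic reticulum, was at 1634, 11480 and 6461, a 7.02-fold difference between LE and LPS. Aen, a nuclease that digests DNA during apoptosis, was at 2156, 8996 and 5789, which was 4.17-fold. Apaf1, the scaffold of the apoptosome that activates caspase-9, was 2.90-fold higher, from 2478 to 7193. Triap1, a small protein that restrains apoptosis, was 2.56-fold higher, from 439 to 1125, so that promoters and a restrainer of death were both higher. Tnfaip8, another survival protein, was the exception at 3246 with LPS, 2304 with LE and 2188 with LEKU, 0.710 of the LPS level in LE (0.691 to 0.729).

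Among the 9 genes of signalling, growth control and secreted factors, 7 were at least 2-fold higher in LE, with a median of 7.46-fold. Lif, a secreted cytokine of the interleukin-6 family, was nearly silent with LPS at 9.49 and stood at 438.8 with LE and 234.7 with LEKU. Its 46.2-fold difference (33.2 to 67.4) ranked 21st among all 15613 genes, and was 30.6-fold with a pseudocount of 5. Phlda3, which competes with the kinase Akt for membrane lipids (chr1:135766119-135769136, plus strand), was at 105.5, 3252 and 3020, 30.8-fold higher in LE (27.9 to 34.3). Its relative Phlda1 was at 17.2, 147.7 and 67.2, an 8.61-fold difference (6.61 to 11.3) at a level far under that of Phlda3 also per length of exon. Epha2, a receptor tyrosine kinase for ephrin-A ligands, was at 171.1, 4830 and 3020, 28.2-fold higher in LE. Rap2b, a small GTPase of the Ras family, was at 237.5, 1771 and 939.5, 7.46-fold higher. Ptp4a3, a phosphatase also called PRL-3, was abundant throughout at 4753, 14634 and 10032, and 3.08-fold higher. Dyrk3, a kinase that helps to dissolve stress granules, was 2.59-fold higher, from 207.6 to 536.7. Prkab1, a regulatory subunit of the energy sensor AMPK, was at 727.8 with LPS and 706.6 with LE, a ratio of 0.971 whose counting interval, 0.921 to 1.02, included no difference. Gdf15, a secreted factor of the TGF-beta superfamily often used as a p53 readout, stayed close to the minimum at 9.47, 13.7 and 14.97, and the counting interval of its 1.45-fold difference, 0.941 to 2.29, included no difference.

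Among regulators of RNA, protein and transcription, 3 of 6 genes were at least 2-fold higher, with a median of 2.24-fold. Zfp365, a zinc finger protein (ENSMUSG00000037855, chr10:67886103-67912662, minus strand), had the largest fold of all members. Its levels were 63.5 with LPS, 4340 with LE and 2052 with LEKU. The 68.3-fold difference between LE and LPS (60.0 to 78.2) ranked 13th among 15613 genes. Zmat3, a zinc finger protein that binds AU-rich RNA and alters its stability and splicing, was at 937.8, 9134 and 5813, 9.74-fold higher. Rps27l, a ribosomal protein closely related to Rps27, was 2.88-fold higher, from 1925 to 5536. Rps27 itself was at 11479, 14679 and 14434, and how reads that match both genes were counted is not given in the sources used here. Trp73, the p53 relative, was low at 39.9, 69.8 and 30.1, and its 1.75-fold difference (1.43 to 2.15) fell short of the threshold. Trp53i11 was at 2963, 3664 and 2885, a 1.24-fold difference. Fbxw7, the substrate receptor of a ubiquitin ligase for Myc and cyclin E, was at 1091, 802 and 665, and so lower in LE at 0.735 of the LPS level (0.702 to 0.770).

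In metabolism, redox and transport 8 of 9 genes were at least 2-fold higher, with a median of 8.94-fold, the highest of the 5 role groups. The 2 largest folds belonged to genes that were low with LPS. Cpt1c, the brain form of carnitine palmitoyltransferase, was at 13.8, 309.2 and 131.5, 22.4-fold higher in LE (16.8 to 30.2). Ak1, an adenylate kinase, was at 11.5, 232.8 and 212.0, 20.3-fold higher (14.99 to 28.7). Slc19a2, a thiamine transporter (chr1:164249046-164265385, plus strand), went from 494 to 8556 with 5567 in LEKU, so that its 17.3-fold difference came at a high level. Dcxr, a reductase of dicarbonyls and xylulose, was at 172.5, 2545 and 1451, 14.8-fold higher. Abhd4, a lipase of N-acyl phospholipids, was 8.94-fold higher, from 539 to 4816, and Ephx1, the microsomal epoxide hydrolase, was 8.83-fold higher, from 407 to 3596. Steap3, an endosomal ferrireductase, was 2.78-fold higher, from 221.7 to 616.3. Pltp, a phospholipid transfer protein, was at 57.4, 136.1 and 44.2, 2.37-fold higher (log2 1.24). Under quantile normalization its log2 fold was 0.85, under the threshold, and the count of members at least 2-fold higher was 25 in place of 26. Pltp shares 19.3% of its exonic bases with Ctsa on the opposite strand, whose levels of 2171, 1238 and 2055 went the other way. Gpx1, the glutathione peroxidase of the cytosol, was high in every condition at 2482, 2772 and 1862, a 1.12-fold difference between LE and LPS.

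For the genes of the mitotic spindle and G2, 2 of 3 were at least 2-fold higher in LE. Psrc1, a microtubule protein of the spindle (chr3:108383839-108388231, plus strand), was at 1047, 5985 and 5287, 5.72-fold higher. Gtse1, a microtubule protein that restrains p53 in G2, was at 1676, 8893 and 5339, 5.31-fold higher. Ckap2, a spindle protein of dividing cells, was at 954, 1286 and 830, which was 1.35-fold (1.29 to 1.41). The 3 spindle genes thus had folds of different sizes.

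**Figure D2:**
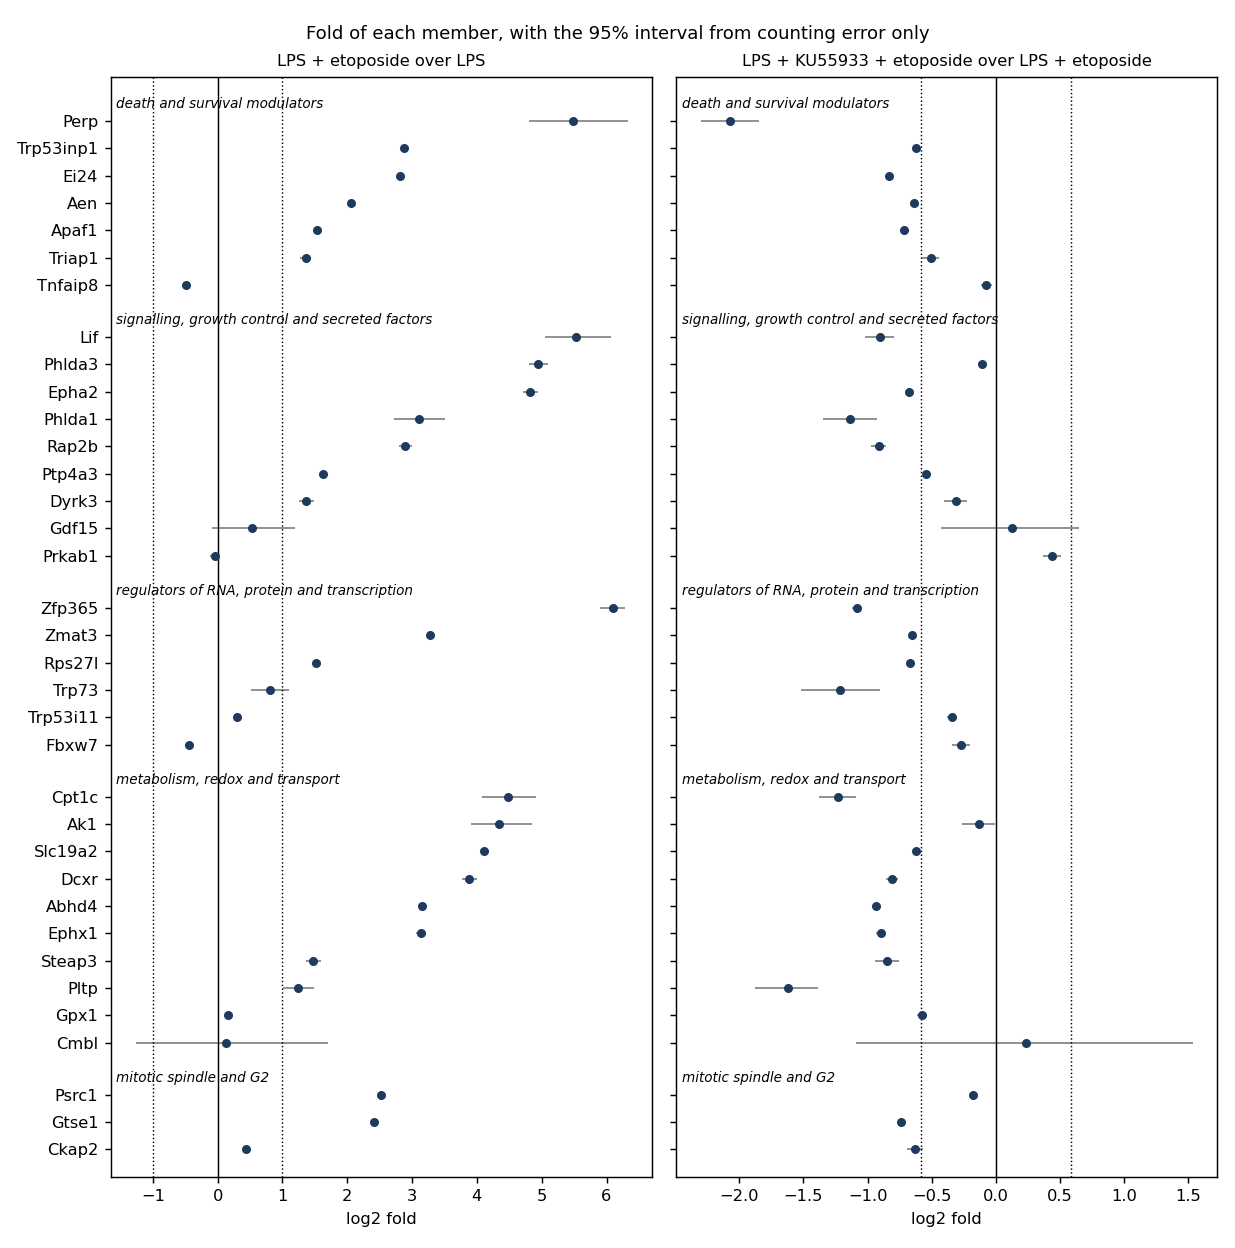
Fold of each member on the log2 scale for LPS and etoposide over LPS (left) and for LPS, KU55933 and etoposide over LPS and etoposide (right); bars are 95% intervals for counting error only and dotted lines are 2-fold on the left and 1.5-fold on the right. On the left Zfp365, Lif and Perp lie farthest to the right and Tnfaip8 and Fbxw7 below 0, and on the right only Prkab1, Gdf15 and Cmbl lie above 0.

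The second comparison set the levels under etoposide with KU55933 against those without it. Without a condition of KU55933 alone, a change in the etoposide response and an effect of the inhibitor by itself cannot be told apart. With KU55933 32 of the 34 members were lower than in LE, with a median fold of 0.633 (log2 -0.66), against 0.966 (log2 -0.050) over all genes. At least 1.5-fold lower were 22 of the 34, 64.7% of them, where 12.4% of all genes were, and none was at least 1.5-fold higher, where 7.11% of all genes were. Of the 31 members at 10 or more in every condition, 20 were at least 1.5-fold lower, 64.5% of them, against 8.88% of genes filtered the same way. The LE libraries serve in this comparison and in the one with LPS, so the values are given side by side and no relation between the comparisons is drawn.

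Perp was the member that differed most with KU55933, at 23.8% of its LE level, a counting interval from 20.3% to 27.8%. Pltp followed at 32.4%, and Cpt1c at 42.5%, Trp73 at 43.1%, Phlda1 at 45.5% and Zfp365 at 47.3% were the other 4 that were at least 2-fold lower, 6 in all where 4.95% of all genes were. The counting intervals of Trp73, 34.8% to 53.4%, and Phlda1, 39.4% to 52.5%, included differences of less than 2-fold. Pltp and Trp73 had LEKU levels under those of LPS, 44.2 against 57.4 and 30.1 against 39.9. Next came Abhd4 at 52.3%, Rap2b at 53.1%, Lif at 53.5%, Ephx1 at 53.8%, Steap3 at 55.5%, Ei24 at 56.3% and Dcxr at 57.0%. These genes of different roles kept between 52.3% and 57.0% of their LE level.

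A second set was close to the 1.5-fold line. Inside it were Gtse1 at 60.0%, Apaf1 at 60.9%, Epha2 at 62.5%, Rps27l at 63.1%, Zmat3 at 63.6%, Aen at 64.3%, Ckap2 at 64.5%, Trp53inp1 at 64.9% and Slc19a2 at 65.1% of LE. Just outside it were Gpx1 at 67.2%, Ptp4a3 at 68.6% and Triap1 at 70.3%. Because so many members lie near that line, the count of 22 came to between 18 and 20 under the 4 other scalings of the conditions.

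The members with the smallest differences below LE were Tnfaip8 at 94.97%, Phlda3 at 92.9%, Ak1 at 91.1% and Psrc1 at 88.3% of LE. Phlda3 and Ak1 were thus 28.6-fold and 18.5-fold higher in LEKU than in LPS, close to their 30.8-fold and 20.3-fold with etoposide alone. The related Phlda1 kept 45.5% (39.4% to 52.5%), so the counting intervals of the 2 Phlda genes did not overlap, and the difference between them beyond counting error was not tested. Fbxw7 at 82.9%, Dyrk3 at 80.6% and Trp53i11 at 78.7% lay between. Prkab1 was the member that was higher with KU55933, at 957 in LEKU, 135% of LE (129% to 142%), and Gdf15 was at 109% with an interval of 74.4% to 157%.

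**Figure D3:**
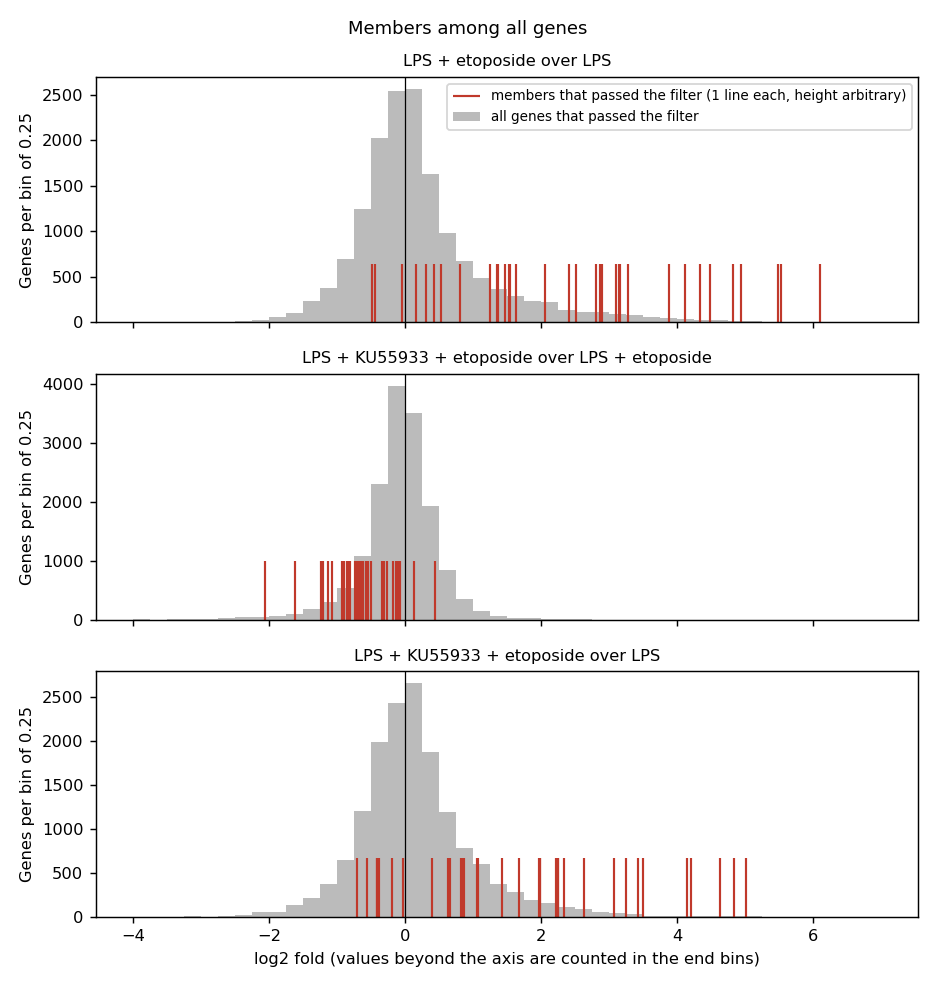
Distribution of the log2 fold over the 15613 genes with a level of 10 or more in some condition (grey bars, genes per bin of 0.25) and the 34 members among them (red lines, whose height has no meaning) in the 3 comparisons. The members spread over the right tail in both comparisons with LPS, and with KU55933 most lie left of 0.

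Compared with LPS, levels stayed higher in LEKU for most members. At least 2-fold higher were 21 of the 34, 61.8% of them, where 12.8% of all genes were, with a median of 3.53-fold (log2 1.82) against 1.05-fold (log2 0.069). Among the 31 members at 10 or more in every condition 19 were, 61.3%, against 8.47% of genes. Zfp365 was 32.3-fold, Phlda3 28.6-fold, Lif 24.7-fold, Ak1 18.5-fold, Epha2 17.7-fold, Slc19a2 11.3-fold and Perp 10.7-fold higher, that of Perp 5.60-fold with a pseudocount of 5. Dyrk3 at 2.08-fold and Ptp4a3 at 2.11-fold were the members closest to the line, and the count of 21 was between 19 and 22 under the other scalings. None was at least 2-fold lower, where 5.54% of all genes were. Only 1 member, Fbxw7, was at least 1.5-fold lower, at 0.609 of the LPS level, where 14.4% of all genes were. It was followed by Tnfaip8 at 0.674, Gpx1 at 0.750, Trp73 at 0.753, Pltp at 0.769 and Ckap2 at 0.870. Trp53i11 was at 0.973 (log2 -0.04), and above LPS under 3 of the other scalings, by up to 0.12 on the log2 scale. Of these 7 members, Pltp alone was past 2-fold in LE.

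Levels between genes can be compared only per length, here per kb of exon in GENCODE M21. Per kb, the highest members with LPS were Rps27l at 2359, Gpx1 at 1723, Trp53inp1 at 935.3, Trp53i11 at 803.0 and Gtse1 at 611.1. With LE the order began with Trp53inp1 at 6843 and Rps27l at 6784, followed by Gtse1 at 3243, Ei24 at 2358, Slc19a2 at 2229, Dcxr at 2224 and Phlda3 at 2086. Slc19a2 had stood at 128.7 per kb and Phlda3 at 67.7 per kb with LPS. At the low end in LE were Cmbl at 1.80 per kb, Gdf15 at 7.40, Trp73 at 12.6, Pltp at 53.1, Cpt1c at 55.2 and Phlda1 at 67.0. Large folds thus occurred both in genes that became abundant, such as Slc19a2, Phlda3 and Epha2 (1033 per kb in LE), and in genes that stayed scarce, such as Perp (103.8) and Lif (100.9).

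Some members share exonic bases with another gene on the opposite strand, as far as the annotation shows. The libraries were made with a strand-specific kit per the study's methods, but whether the counting used the strand is not given in the sources used here. Rap2b shares 54.5% of its bases with B430305J03Rik and 3.83% with Gm37696, which was at 20.0, 150.7 and 62.7. Phlda1 shares 33.0% with Gm28592, which also has no level. Tnfaip8 shares 12.7% with C030005K06Rik, which was at 6.73, 9.81 and 5.86. If the counting did not use the strand, Rap2b, Phlda1, Tnfaip8 and Pltp could have gained reads in the shared bases. They could have lost reads there only where the other gene was counted too.

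The 20 other genes of the p53 pathway on a separate list give a scale for these values. In LE 15 of 20 were at least 2-fold higher, 75% of them, where 15.5% of all genes were. The median was 4.46-fold, and none was at least 2-fold lower, where 5.35% of all genes were. The highest were Plk2, a polo-like kinase, at 256.1, 10036 and 6099, which was 39.2-fold, and Cdkn1a, the cell cycle inhibitor p21, at 401.5, 13652 and 10869, which was 34.0-fold. The lowest were Sesn1, a sestrin of the stress response, at 0.892 and the repair protein Ddb2 at 0.959 of the LPS level. With KU55933 6 of these 20 were at least 1.5-fold lower, 30% of them, where 12.4% of all genes were. The 6 were Ccng1, Eda2r, Fas, Mdm2, Plk2 and Ppm1d, and the median fold of the 20 was 0.766 (log2 -0.38). Tnfrsf10b and Sesn2 lay just outside the line, both at 66.7% of LE. The members had 64.7% and 0.633 in the same comparison, and the difference between the 2 lists was not tested. Against LPS, 15 of the 20 were at least 2-fold higher in LEKU, 75% of them, where 12.8% of all genes were.

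Of the 8 members under 2-fold with etoposide, Gdf15 and Prkab1 had a direction that changed with the scaling of the conditions. Tnfaip8 and Fbxw7 were lower in LE under all 5 scalings, by 0.41 to 0.64 and by 0.37 to 0.59 on the log2 scale. Gpx1, Trp53i11, Ckap2 and Trp73 were higher in LE under all 5. Gdf15 was higher by 0.53 as reported and lower, at -0.12, under quantile normalization. Prkab1 was at -0.04 as reported and at 0.03 with library totals. Under KU55933, Tnfaip8 was at -0.07 as reported and at 0.0017 under quantile normalization, while Prkab1 was above 0 under all 5 scalings.

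**Figure D4:**
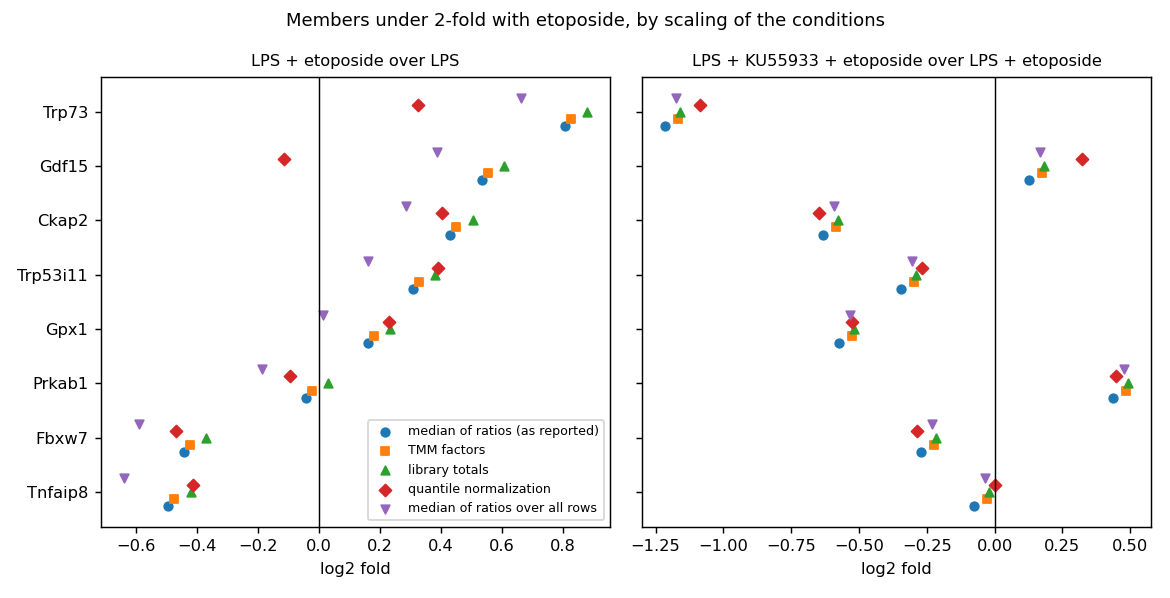
Log2 fold of the 8 members under 2-fold with etoposide, under 5 ways to scale the conditions (symbols), for LPS and etoposide over LPS (left) and LPS, KU55933 and etoposide over LPS and etoposide (right). Gdf15 and Prkab1 cross 0 on the left and Tnfaip8 on the right, and the other genes keep their side.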

How the data were processed

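B cell RNA of 3 conditions with 4 libraries each, from biological replicates per the study's methods, was sequenced. The authors trimmed reads with Trim Galore and cutadapt 1.2.1, mapped them with TopHat2 2.0.12 to GRCm38, counted them with HTSeq on Ensembl 78 genes and fitted DESeq2 1.6.3. The deposited table holds a signal, the normalised count fitted for each condition times a factor per library. The 3 deposited comparison tables hold mean signals, log2 fold changes, standard errors, Wald statistics and p-values of the authors, and were not used.

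Columns were scaled by the median of ratios over 13712 genes at 10 or more in every column, with no pseudocount. Genes with a level of at least 10 in 1 condition were described. Thresholds were 2-fold against LPS and 1.5-fold for LEKU against LE. The limma test that was planned for values per replicate could not be run on fitted means. Python 3.11.15, numpy 2.4.6, pandas 2.3.3, scipy 1.17.1 and matplotlib 3.10.9 were used. The functions for the median of ratios and TMM factors were tested on simulated columns without noise, and the other steps were not. GENCODE M21 (GRCm38) matched 29258 of 29486 gene IDs. All 35 members are named, in role groups, with the 2 highest and 2 lowest of 20 other pathway genes. Members and lists were chosen with earlier results of these data known. Alternatives were TMM factors, library totals, quantile normalization, pseudocounts of 1 and 5, other filters and folds, leaving out each library and, added after seeing the data, a median of ratios over all rows.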

Additional observations from a re-analysis of the deposited data

How the results depend on the processing

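No median of the members changed sign under any alternative, and 180 of 195 recomputed summaries stayed close to the value reported. A count stayed close if it was within 1.5-fold of the reported count, and it had no sign that could change. A median stayed close if it lay between the medians of the lower and of the upper counting limits of the members. Most of the 195 came from leaving out 1 library, which could hardly move them. All 15 that moved came from the other alternatives. The median log2 fold of the members in LE over LPS was 2.53 with library totals and 2.53 with quantile normalization, 2.41 with no filter and with a level of 10 in every condition, 2.52 with a minimum of 50, and 2.32 with the scaling over all rows that was added after seeing the data. In LEKU over LE it was -0.61 with TMM factors, -0.60 with library totals, -0.62 with quantile normalization and -0.62 with the scaling over all rows. In LEKU over LPS it was 1.89 with TMM factors, 1.95 with library totals and 1.97 with a minimum of 50. At 2-fold in place of 1.5-fold, 6 members were lower in LEKU than in LE, and at 1.5-fold in place of 2-fold, 1 was lower in LEKU than in LPS. The median log2 fold of all genes in LE over LPS was 0.042 as reported. It was -0.11 with the scaling over all rows, -0.099 with quantile normalization and 0.16 with no filter. In LEKU over LPS, 0.069 as reported, it was 0.20 with library totals and -0.040 with the scaling over all rows. TMM factors, library totals and the scaling over all rows move every fold of a comparison by the same amount. The cause of the sizes of the shifts was not tested. Of 906 single folds recomputed under other settings 693 stayed close, that is inside their counting interval, and 213 moved. Among the 693 are the 102, 99 and 93 folds with no filter, a minimum of 50 and a minimum of 10 in every condition. These could not move, because a filter does not alter a fold. Shifts reached 0.650 on the log2 scale with quantile normalization, for Gdf15, and 1.04 with a pseudocount of 5, for Perp, both in LE over LPS. Leaving out 1 library moved no fold by more than 0.0068, but since the libraries of a condition hold the same fitted mean, this says nothing about stability. No paired analysis was possible because the columns hold no spread between replicates and no result comes from a test. The normalised counts alone do not allow a fold to be set against the spread between cultures, and the deposited comparison tables, which hold standard errors, were not used. For Perp, Lif, Gdf15, Ak1, Cpt1c, Phlda1 and Trp73 the low level with LPS limits the precision.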
